A study of Rattus norvegicus with 9 samples.

Results

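The platelet-derived growth factor (PDGF) genes of the rat comprise 4 ligands, Pdgfa, Pdgfb, Pdgfc and Pdgfd, and 2 receptors, Pdgfra and Pdgfrb. They were taken by symbol from the count table, where they are 6 of 17337 genes, and all 6 were among the 11337 genes with enough counts to be tested. RNA was sequenced from cardiac fibroblast cultures of Sprague Dawley rats at 3 ages. Fetal cells came from embryos at day 18, neonatal cells from pups at postnatal day 1 and adult cells from rats 7 weeks old, and 3 libraries were made for each age. All cultures were primary cells at passage 0, grown to confluency in DMEM with antibiotics, 10% fetal bovine serum and 0.1 mM ascorbic acid. No transgene, drug or sort is named in the labels, and they do not give the sex or number of animals behind a culture. They also do not say that the libraries of an age came from separate cultures, so p-values here measure the spread between these libraries. The design asks how gene expression in these cells differs with age.

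PDGF ligands act as dimers on receptor tyrosine kinases at the cell surface. The A, B and C chains bind the alpha receptor encoded by Pdgfra, and the B and D chains bind the beta receptor encoded by Pdgfrb. The A and B chains are cut by furin-like proteases inside the cell, whereas the C and D chains are secreted with an inhibitory CUB domain that proteases outside the cell remove. In the heart Pdgfra is widely used as a marker of fibroblasts and Pdgfrb as a marker of pericytes and vascular smooth muscle, and both receptors take part in forming these cells from the epicardium.

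Promoter windows from RefSeq (build GRCr8, 250 bases before to 50 bases after an annotated start) were given for 5 of the 6 genes, all but Pdgfrb. Those of Pdgfb, Pdgfc and Pdgfra are printed because these 3 genes had the largest differences in level between ages. For Pdgfc the start used is not the most upstream one annotated. Its window reads ATG, a start codon, exactly at that start. The 250 bases before it may therefore be part of the transcript and not its promoter. Capitals mark matches, on either strand, to the motifs searched. These were GGGCGG, called the GC box, then TATAAA, the core of the TATA box, and then CCAAT, bound by NF-Y. The others were TGANTCA, a loose form of the AP-1 site with any base in the middle, and GCGGGGGCG, bound by EGR proteins. The windows lie at chr7:113438294-113438593 on the minus strand for Pdgfb, chr2:168614918-168615217 on the plus strand for Pdgfc and chr14:33408467-33408766 on the minus strand for Pdgfra, and each is written 5′ to 3′ along the gene.
Pdgfb: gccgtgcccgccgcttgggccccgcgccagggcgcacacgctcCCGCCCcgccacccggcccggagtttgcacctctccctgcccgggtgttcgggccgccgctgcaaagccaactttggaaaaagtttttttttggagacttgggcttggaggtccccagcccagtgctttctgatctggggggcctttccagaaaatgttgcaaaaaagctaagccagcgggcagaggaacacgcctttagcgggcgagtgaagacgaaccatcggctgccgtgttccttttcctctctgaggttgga
Pdgfc: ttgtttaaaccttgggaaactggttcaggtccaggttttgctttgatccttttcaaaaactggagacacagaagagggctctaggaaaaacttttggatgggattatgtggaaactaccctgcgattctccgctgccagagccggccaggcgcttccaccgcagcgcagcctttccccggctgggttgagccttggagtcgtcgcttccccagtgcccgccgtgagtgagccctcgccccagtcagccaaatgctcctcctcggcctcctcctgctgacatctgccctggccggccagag
Pdgfra: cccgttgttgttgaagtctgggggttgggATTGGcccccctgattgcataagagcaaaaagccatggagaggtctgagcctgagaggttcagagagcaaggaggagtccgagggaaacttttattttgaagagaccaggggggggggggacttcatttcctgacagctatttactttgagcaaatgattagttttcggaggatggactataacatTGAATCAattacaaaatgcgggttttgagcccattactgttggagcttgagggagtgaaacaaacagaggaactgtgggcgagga
The Pdgfb window held 1 GC box, beginning 207 bases before the start. The windows of Pdgfa and Pdgfd, not printed, also held 1 GC box each, beginning 187 and 114 bases before the start, and 33.1% of all 33469 rat windows hold at least 1. The Pdgfra window held 1 match to CCAAT (37.5% of all windows) 221 bases before the start and 1 to TGANTCA (7.33% of all windows) 35 bases before it. The latter reads TGAATCA, whereas the AP-1 consensus has C or G in the middle. None of the 5 motifs occurred in the Pdgfc window, which speaks only for the bases printed and not for the Pdgfc promoter. TATAAA (14.2% of all windows) and GCGGGGGCG (2.73%) occurred in none of the 5 windows. GC content was 48% in the Pdgfra window against 58% to 62% in those of the 4 ligands, with a median of 51.7% over all windows. These matches are descriptions of sequence, and no binding was measured.

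The libraries held 13392825 to 22850491 assigned counts, and the adult ones were the shallowest. Levels are given as counts per 1000000 assigned counts (CPM) scaled by TMM, a normalization that assumes most genes do not change, and as mean ± SD over n = 3 libraries. With 3 counts as the floor, which covers counting error only because PCR reads are not independent molecules, a library could show a gene down to 0.132 to 0.230 CPM. All 6 genes lay above that in every library. Fibroblast markers were abundant at all ages, with a summed level of 37175 to 103185 CPM over 12 genes. The sums were 79208, 77712 and 37175 CPM in fetal, 95888 to 103185 in neonatal and 39969 to 52023 in adult libraries. All neonatal libraries lay above all fetal ones for 8 of the 12 and below for 0. They lay above all adult ones for 6 and below for 4. All adult libraries lay above all fetal ones for 5 and below for 2. Over all genes tested, 57.4%, 76.1% and 71.8% did not overlap in these comparisons, in either direction. Among the 12, Col1a2 was at 0.0531 to 0.976 CPM in every library. Col1a1, the partner chain of the same collagen, had fetal, neonatal and adult means of 26035, 37796 and 14965 CPM.

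Fetal replicate 3 stood apart from the other fetal libraries. Its 8 epithelial markers summed to 405 CPM, against 23.8 and 26.7 in the other fetal libraries and at most 6.55 elsewhere, and its fibroblast sum of 37175 CPM was the lowest of all. The fold changes of all 6 PDGF genes are therefore plotted with and without it, and values that moved without it are given beside the results. Markers of other cells also differed with age. The 12 macrophage markers summed to 12.9 to 58.3 CPM in fetal, 143 to 158 in neonatal and 3922 to 5368 in adult libraries, and for each of the 12 all adult libraries lay above all younger ones. The sum of 10 mural cell markers was 1058 to 1921 CPM in fetal, 2528 to 2615 in neonatal and 297 to 604 in adult libraries. For 6 of the 10 all neonatal libraries lay above all fetal ones, and for 1 below, where 57.4% of all genes did not overlap. For 7 all neonatal libraries lay above all adult ones, and for 2 below, where 76.1% of all genes did not overlap. Among the 10, the pericyte marker Rgs5, named after its values were seen, was at 0.425 to 8.70 CPM in all libraries. Most of each mural sum thus came from the other markers of the list. The sum of the 11 cardiomyocyte markers in the table was 7071 to 10717 CPM in fetal, 5067 to 5617 in neonatal and 304 to 319 in adult libraries. The 10 endothelial markers summed to 23.6 to 30.4, 37.0 to 40.8 and 112 to 124 CPM. Of 6 megakaryocyte and platelet markers 4 were in the table. They summed to 0.309 to 2.66 CPM in fetal, 1.17 to 1.65 in neonatal and 73.9 to 86.5 in adult libraries. All adult libraries lay above all fetal ones for 2 and above all neonatal ones for 1, against 71.8% and 76.1% of all genes. Ppbp, a platelet gene among the 4, was at 0 in every library. Epicardial markers (4 of 6 in the table) summed to 58.3 to 62.0, 29.5 to 32.0 and 14.004 to 33.0 CPM at the 3 ages. Cartilage markers summed to 168 to 200, 267 to 287 and 64.1 to 125 CPM. The part of these cells in the results below was not tested, and in bulk RNA fewer cells of a type and less RNA per cell cannot be told apart.

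**Figure D1:**
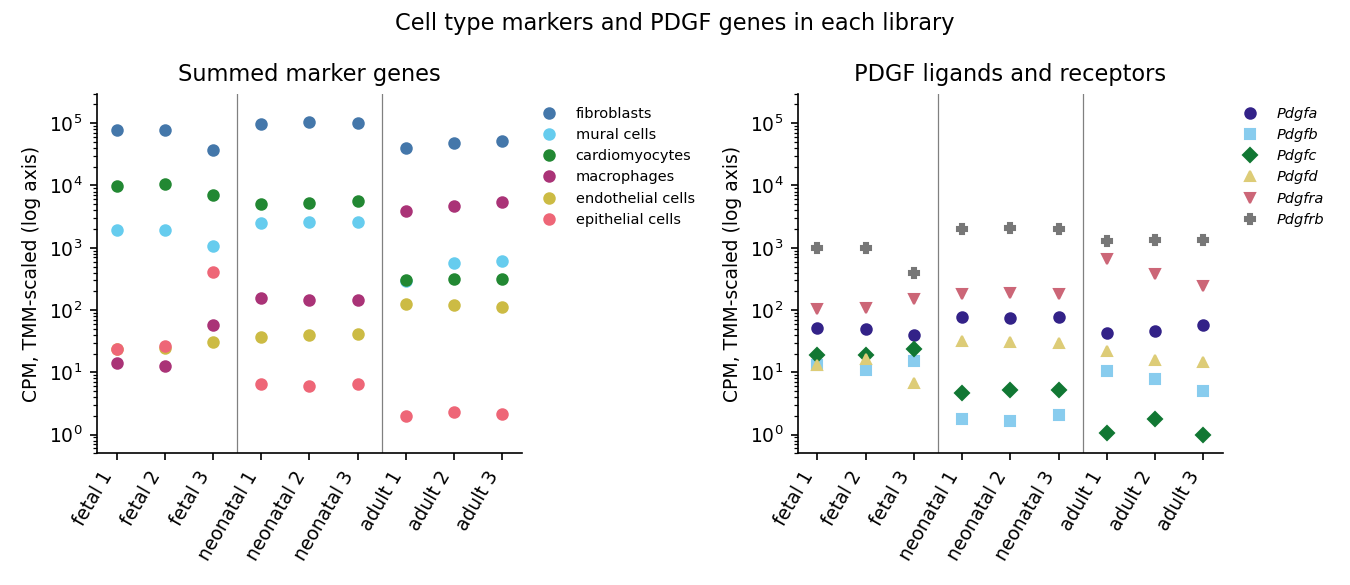
Summed CPM of 6 cell type marker lists (left) and CPM of the 6 PDGF genes (right) in each of the 9 libraries, on log axes, with 1 point per list or gene and library. Macrophage markers are highest in the 3 adult libraries, epithelial markers are highest in fetal replicate 3, and Pdgfrb lies above the other PDGF genes in all 9 libraries.

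Every PDGF gene differed between ages. In the edgeR quasi-likelihood test of any difference among the 3 ages, all 6 passed the threshold of adjusted p under 0.05, with adjusted p from 9.33e-07 for Pdgfc to 0.00704 for Pdgfrb, where 77.6% of all genes tested passed. Between neonatal and fetal cultures 5 of the 6 were called, 3 higher and 2 lower in neonatal cells, against a background of 36.3% of all genes called (18.3% higher and 18% lower). Between adult and fetal cultures 4 were called, 2 in each direction, against 70.5% of all genes (34.9% higher and 35.5% lower). Between adult and neonatal cultures 5 were called, 2 higher and 3 lower in adult cells, against 63.5% (31.6% higher and 31.8% lower). The libraries of the ages compared did not overlap for 6, 4 and 6 of the genes in these comparisons, where 57.4%, 71.8% and 76.1% of all genes did not. Without fetal replicate 3 the counts called were 5, 4 and 6, where 4679, 8616 and 8322 of all 11519 genes tested in that fit were called. The comparisons share libraries, so they are not independent of each other.

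**Figure D2:**
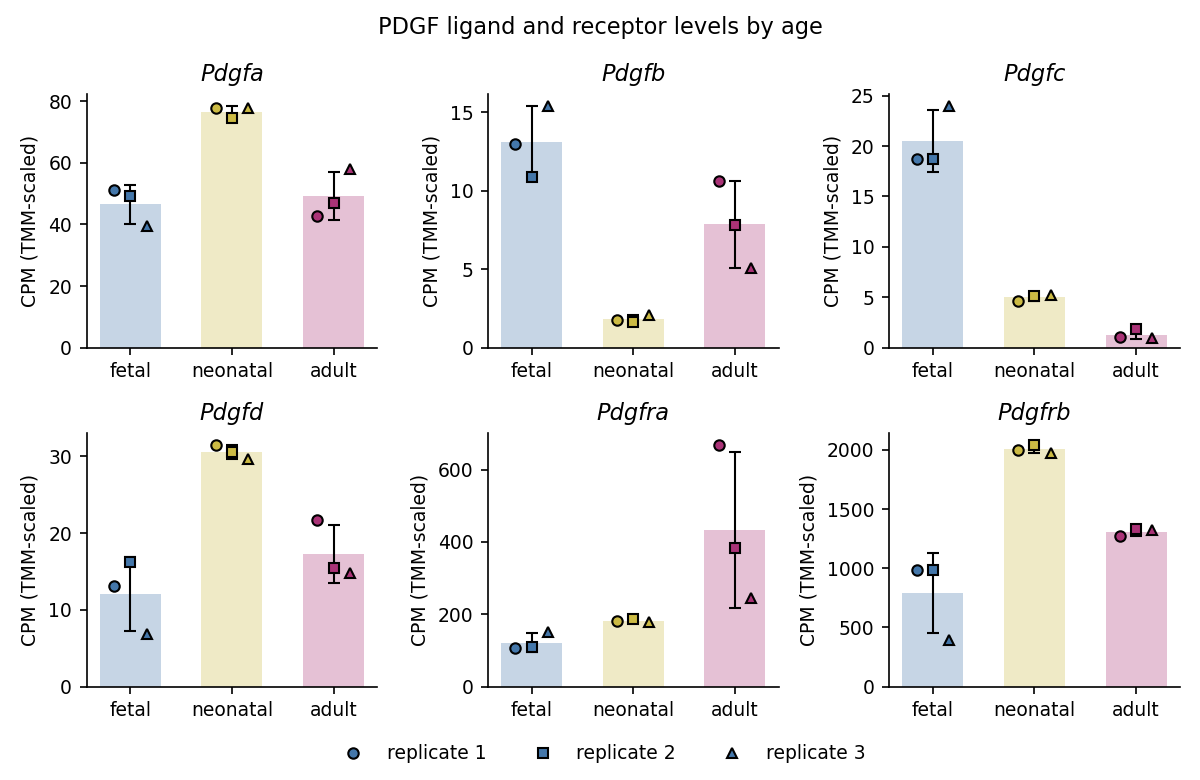
Level of each PDGF gene in TMM-scaled CPM by age, with bars for the mean, error bars for 1 SD and 1 point per library (n = 3). Pdgfa, Pdgfd and Pdgfrb are highest in the neonatal libraries, Pdgfb and Pdgfc in the fetal and Pdgfra in the adult libraries.

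Pdgfa encodes the A chain, which signals through the alpha receptor alone. Its exons cover 1308 bases on chromosome 12 (rn6, 17734141 to 17755240, plus strand). It stood at 51.0, 49.1 and 39.3 CPM in fetal, 77.6, 74.4 and 77.8 in neonatal and 42.6, 47.0 and 57.9 in adult libraries. The neonatal libraries lay above all others, and the fetal and adult libraries overlapped. The mean rose from 46.5 ± 6.29 in fetal to 76.6 ± 1.94 CPM in neonatal cultures, a log2 fold change of 0.72 (SE 0.126, adjusted p = 0.00266), and was 49.2 ± 7.87 in adult cultures, lower than in neonatal ones by a log2 change of -0.64 (SE 0.127, adjusted p = 0.00174). Adult and fetal cultures were not told apart (log2 fold change 0.08, SE 0.127, adjusted p = 0.589), and the sign of that difference turned to -0.03 without fetal replicate 3.

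Pdgfb encodes the B chain, the 1 chain that binds every receptor dimer. Its exons cover 1706 bases on chromosome 7 (rn6, 121215458 to 121233092, minus strand). It stood at 12.96, 10.8 and 15.4 CPM in fetal, 1.76, 1.63 and 2.07 in neonatal and 10.6, 7.80 and 5.09 in adult libraries. These neonatal levels rest on 32 to 35 counts per library, against 240 to 290 in fetal and 68 to 139 in adult libraries. The ages did not overlap, although the highest adult library came close to the lowest fetal one. Pdgfb fell 7.19-fold from fetal to neonatal cultures (log2 fold change -2.85, SE 0.280, adjusted p = 0.000135), from a mean of 13.1 ± 2.28 to 1.82 ± 0.228 CPM. In adult cultures it was at 7.84 ± 2.77 CPM, 4.32-fold higher than in neonatal ones (log2 2.11, SE 0.284, adjusted p = 0.000161). It was the only PDGF gene with its lowest level in neonatal cells. The adult level was below the fetal one by a log2 change of -0.74 (SE 0.251, adjusted p = 0.0249), a call that was lost without adult replicate 2 (-0.73, adjusted p = 0.0644) or adult replicate 3 (-0.50, adjusted p = 0.0642). The summed macrophage markers, given above as 12.9 to 58.3 CPM for fetal, 143 to 158 for neonatal and 3922 to 5368 for adult libraries, also differed between these ages, and their part in the levels of Pdgfb was not tested.

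Pdgfc encodes the C chain, a latent ligand of the alpha receptor that tissue plasminogen activator can activate. Its exons cover 1116 bases on chromosome 2 (rn6, 179952227 to 180126897, plus strand). It stood at 18.7, 18.7 and 24.0 CPM in fetal, 4.62, 5.16 and 5.24 in neonatal and 1.07, 1.81 and 0.974 in adult libraries. Every fetal library lay above every neonatal one and every neonatal above every adult one. From a fetal mean of 20.5 ± 3.05 CPM it fell to 5.01 ± 0.336 in neonatal cultures, a 4.09-fold difference (log2 fold change -2.03, SE 0.192, adjusted p = 0.000111). It fell by a further 3.87-fold to 1.28 ± 0.455 CPM in adult cultures (log2 -1.95, SE 0.235, adjusted p = 8.1e-05). The difference between fetal and adult cultures, 15.8-fold (log2 -3.98, SE 0.229, adjusted p = 4.71e-07), was the widest of any PDGF gene in any pair of ages, and it was 14.5-fold without fetal replicate 3. The adult levels rest on 13 to 25 counts per library.

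Pdgfd encodes the D chain, a latent ligand of the beta receptor that urokinase and matriptase can activate. Its exons cover 1327 bases on chromosome 8 (rn6, 4441010 to 4666754, plus strand). It stood at 13.2, 16.3 and 6.80 CPM in fetal, 31.5, 30.6 and 29.6 in neonatal and 21.7, 15.5 and 14.8 in adult libraries. All neonatal libraries lay above all others, and fetal replicate 3 was the lowest of the 9. Pdgfd rose 2.52-fold from fetal (12.1 ± 4.83 CPM) to neonatal cultures (30.6 ± 0.946 CPM), with a log2 fold change of 1.34 (SE 0.272, adjusted p = 0.00586), or 1.05 without fetal replicate 3. Adult cultures, at 17.3 ± 3.78 CPM, were lower than neonatal ones by a log2 change of -0.82 (SE 0.271, adjusted p = 0.0247). That call was lost without neonatal replicate 1 or 2 or adult replicate 2 or 3 (adjusted p = 0.0578 to 0.0817). Adult and fetal cultures were not told apart (log2 0.51, SE 0.277, adjusted p = 0.126), but this passed without fetal replicate 2 (0.79, adjusted p = 0.0306).

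The mix of ligands was compared on levels divided by exon length, in CPM per kilobase, since a longer transcript yields more reads. Pdgfa was the most abundant ligand at every age, at 35.5 ± 4.81 CPM per kilobase in fetal, 58.6 ± 1.48 in neonatal and 37.6 ± 6.01 in adult cultures. In fetal cultures Pdgfc followed at 18.4 ± 2.73 CPM per kilobase, ahead of Pdgfd at 9.11 ± 3.64 and Pdgfb at 7.66 ± 1.34, which did not differ beyond their spread. In fetal replicate 3 Pdgfd was below Pdgfb (5.12 and 9.03 CPM per kilobase), and in the other fetal libraries it was above it (9.93 and 12.3 against 7.60 and 6.36). In neonatal cultures the order after Pdgfa was Pdgfd (23.1 ± 0.713 CPM per kilobase), Pdgfc (4.49 ± 0.301) and Pdgfb (1.07 ± 0.134), with every neighbouring pair apart by more than the spread. In adult cultures it was Pdgfd (13.05 ± 2.85 CPM per kilobase), Pdgfb (4.60 ± 1.63) and Pdgfc (1.15 ± 0.408). As a share of the summed ligands, Pdgfc made up 26.2% ± 5.65 in fetal, 5.15% ± 0.398 in neonatal and 2.06% ± 0.826 in adult cultures. The share of Pdgfb was 10.9% ± 2.56, 1.22% ± 0.142 and 8.22% ± 3.05 at the same ages, and that of Pdgfd was 12.7% ± 4.56, 26.5% ± 0.864 and 23.2% ± 5.31. Without fetal replicate 3 the fetal shares were 52.3% for Pdgfa, 9.54% for Pdgfb, 23.0% for Pdgfc and 15.2% for Pdgfd. The sum of the ligands was 70.7 ± 4.29 CPM per kilobase in fetal, 87.2 ± 1.47 in neonatal and 56.4 ± 2.73 in adult cultures. These sums and shares are descriptions, given without a test.

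Pdgfra encodes the alpha receptor. Its exons cover 6515 bases on chromosome 14 (rn6, 35527926 to 35581031, minus strand). It stood at 105.7, 109 and 151 CPM in fetal, 181, 187 and 178 in neonatal and 669, 384 and 245 in adult libraries. Each adult library lay above all others, but the adult libraries spread over 2.73-fold, wider than 92.7% of all genes tested at that age. Pdgfra rose 3.55-fold from fetal (122 ± 25.6 CPM) to adult cultures (433 ± 216 CPM), with a log2 fold change of 1.83 (SE 0.320, adjusted p = 0.000810), or 2.01 without fetal replicate 3. It was 2.37-fold higher in adult than in neonatal cultures (182 ± 4.72 CPM), with a log2 fold change of 1.25 (SE 0.315, adjusted p = 0.00743), or 0.79 without adult replicate 1 (adjusted p = 0.0103). Neonatal libraries lay above the fetal ones without overlap, but the difference did not pass (log2 0.58, SE 0.313, adjusted p = 0.174). It did pass in a fit of those ages alone (0.58, adjusted p = 0.0211) and without adult replicate 1 (adjusted p = 0.0390), the library with the highest level.

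Adult replicate 1, the highest in Pdgfra, did not stand on 1 side of the other adult libraries in the 12 fibroblast markers. It was the highest of the 3 in 5 of them and the lowest in 7, and its fibroblast sum of 39969 CPM was the lowest of the adult libraries, against 48050 and 52023. Examples were chosen after these values were seen. Decorin (Dcn), a matrix proteoglycan of fibroblasts, was at 471, 359 and 230 CPM in the adult libraries, and Tcf21, a fibroblast transcription factor, at 226, 113 and 108 CPM. Col1a1 and Postn, genes of the fibroblast matrix, went the other way, Col1a1 at 11890, 15691 and 17313 CPM and Postn at 375, 873 and 998 CPM. The macrophage marker sum was 3922, 4704 and 5368 CPM in the same libraries. Whether the make-up of the cultures sets the Pdgfra spread was not tested.

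Pdgfrb encodes the beta receptor. Its exons cover 5370 bases on chromosome 18 (rn6, 56364677 to 56406381, plus strand). It stood at 988, 986 and 397 CPM in fetal, 2000, 2044 and 1973 in neonatal and 1271, 1332 and 1320 in adult libraries. The ages did not overlap, and fetal replicate 3 had well under the level of the other fetal libraries, while its Pdgfra was the highest of the 3. Pdgfrb rose 2.54-fold from fetal (790 ± 341 CPM) to neonatal cultures (2006 ± 35.7 CPM), with a log2 fold change of 1.34 (SE 0.290, adjusted p = 0.00794). Without fetal replicate 3 the change was 1.02 (SE 0.0514, adjusted p = 1.26e-07). Adult cultures, at 1308 ± 32.7 CPM, were higher than fetal ones by a log2 change of 0.73 (SE 0.286, adjusted p = 0.0464), and by 0.40 (SE 0.0504, adjusted p = 2.5e-05) without fetal replicate 3. The adult to neonatal difference, -0.62 (SE 0.286, adjusted p = 0.0878), did not pass with all libraries. It passed at the same size without fetal replicate 3 (-0.62, SE 0.0447, adjusted p = 3.12e-07). The call between adult and fetal cultures was lost without any 1 of the neonatal or adult libraries (adjusted p = 0.0652 to 0.0942).

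**Figure D3:**
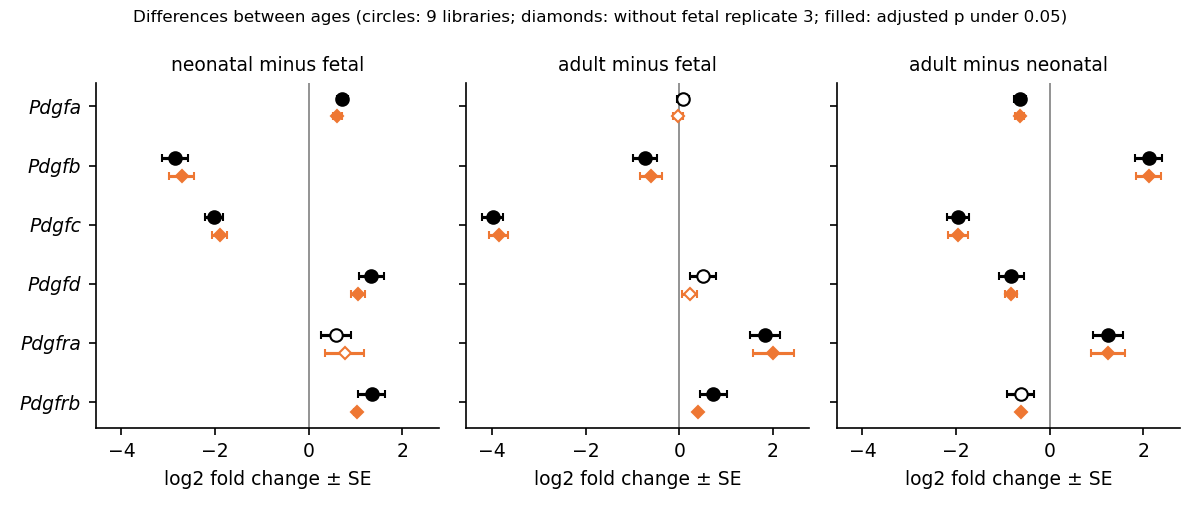
Log2 fold change ± SE of each PDGF gene in the 3 comparisons from edgeR, with all 9 libraries (circles) and without fetal replicate 3 (diamonds), filled where adjusted p is under 0.05. Pdgfb and Pdgfc lie below 0 against fetal cells at both later ages, and Pdgfb lies at 2.11 between adult and neonatal cells.

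Per kilobase of exon Pdgfrb exceeded Pdgfra in every library. The ratio of Pdgfrb to Pdgfra was 11.3, 11.01 and 3.18 in fetal, 13.4, 13.2 and 13.5 in neonatal and 2.30, 4.21 and 6.53 in adult libraries. It was thus near constant among neonatal libraries and lower in every adult library than in any neonatal one, while adult and fetal libraries overlapped through fetal replicate 3. The log2 ratio of Pdgfra to Pdgfrb was -2.88 ± 1.05 in fetal, -3.74 ± 0.0117 in neonatal and -1.996 ± 0.754 in adult cultures. Adult cultures differed from neonatal ones by 1.74 (exact two-sided permutation test, p = 0.1, adjusted over the 3 pairs 0.15), which is the smallest p that 3 libraries against 3 can give, and were higher in 3 of 3 libraries. The other differences were -0.86 between neonatal and fetal cultures (p = 0.1, adjusted 0.15) and 0.88 between adult and fetal cultures (p = 0.3, adjusted 0.3) by the same exact test. None passed. Without fetal replicate 3 these were -0.26 and 1.49, and the adult libraries then lay above the fetal ones without overlap.

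Both receptors together outweighed the ligands at every age. Their sum was 166 ± 59.6 CPM per kilobase in fetal, 401 ± 7.37 in neonatal and 310 ± 28.0 in adult cultures, or 200 in the fetal cultures without replicate 3. The ratio of this sum to that of the ligands was 2.32 ± 0.728 in fetal (2.74 without replicate 3), 4.61 ± 0.157 in neonatal and 5.51 ± 0.652 in adult cultures. Among all genes tested, Pdgfrb exceeded 95.6%, 98.6% and 97% of genes per kilobase in fetal, neonatal and adult cultures, and Pdgfra exceeded 62.5%, 72.4% and 86.5%. The ligand at the other end was Pdgfc in adult cultures, which exceeded 13.2%, and Pdgfb in neonatal cultures, which exceeded 13.5%.

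**Figure D4:**
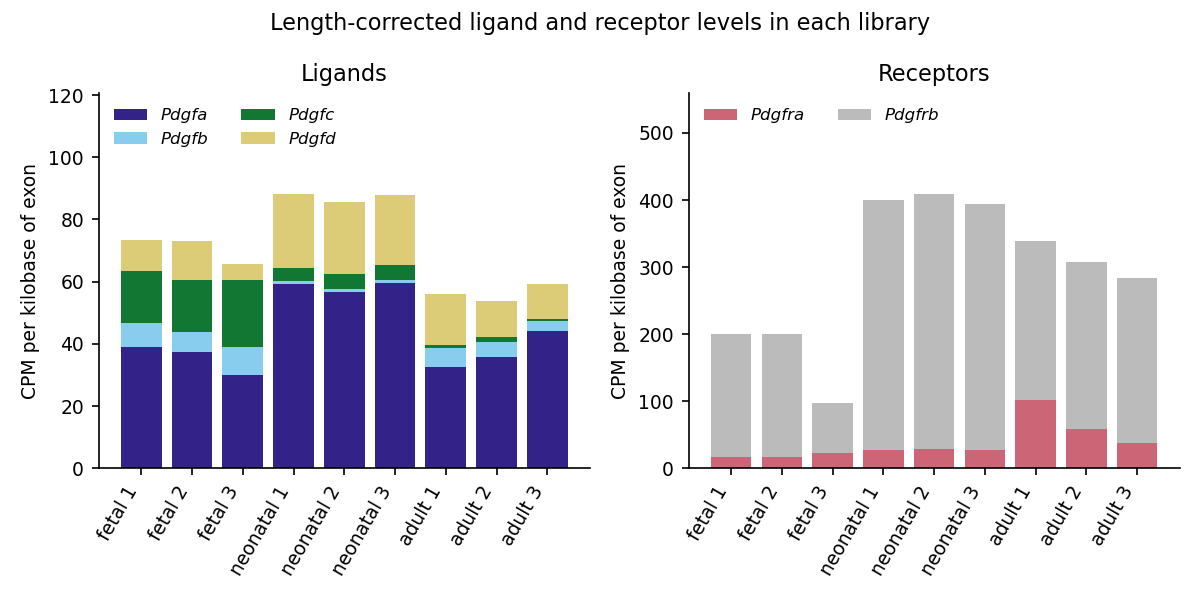
CPM per kilobase of exon in each library, stacked over the 4 ligands (left) and the 2 receptors (right), on axes that start at 0. Pdgfc takes a visible share of the ligand bars in fetal libraries, and Pdgfra takes its widest share of the receptor bars in adult replicate 1.

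The genes that act before, with and after these receptors were followed in 6 lists of 81 genes, of which 79 were in the table and 77 were tested. Over all lists 28 genes were called between neonatal and fetal cultures (36.4%, near the 36.3% of all genes), 60 between adult and fetal cultures (77.9% against 70.5%) and 55 between adult and neonatal cultures (71.4% against 63.5%). The median log2 fold change of all genes tested was -0.01 in each comparison.

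Of the 8 tested genes that process, bind or modulate the ligands, 4 rose and 1 fell from fetal to neonatal cultures, with a median log2 fold change of 0.71. Between adult and fetal cultures 3 were higher and 1 lower, with a median of 0.52, and between adult and neonatal cultures 2 were higher and 3 lower, with a median of -0.26. The shares called in the 3 comparisons were 62.5%, 50% and 62.5%, against 36.3%, 70.5% and 63.5% of all genes. Without fetal replicate 3 the list had 5 and 1, 4 and 4, and 3 and 5 calls in each direction. Without any 1 neonatal library 2 of its genes, not 4, were called higher between neonatal and fetal cultures. Plau, which encodes urokinase, was at 16.7, 18.8 and 82.7 CPM in fetal, 14.1 ± 1.80 in neonatal and 210 ± 36.2 in adult cultures. It was higher in adult cells than in fetal (log2 2.41, adjusted p = 0.00381) and neonatal ones (3.89, adjusted p = 0.000477), and the first difference was 3.55 without fetal replicate 3. Furin, whose product cuts the A and B chains, fell from a fetal mean of 367 ± 8.26 CPM to 304 ± 9.44 in neonatal cultures and 272 ± 15.8 in adult ones (log2 -0.27 and -0.43 against fetal, adjusted p = 0.0108 and 0.000249), and its neonatal call was lost without neonatal replicate 1 (-0.24, adjusted p = 0.0561). The following were chosen after their values were seen. Plat, encoding the tissue plasminogen activator that can act on the C chain, was at 355 ± 108, 645 ± 11.4 and 292 ± 37.7 CPM at the 3 ages, higher in neonatal than in fetal cells (log2 0.86, adjusted p = 0.0118, or 0.63 without fetal replicate 3). Pdgfrl, a gene with sequence like the receptors but no kinase domain, was at 53.8, 52.7 and 13.2 CPM in the fetal libraries, with means of 106 ± 2.03 in neonatal and 83.1 ± 11.5 in adult ones (neonatal against fetal log2 1.41, adjusted p = 0.0285). That difference was 1.00 without fetal replicate 3 (adjusted p = 1.75e-05), and its call was lost without any 1 neonatal library (adjusted p = 0.0709 to 0.0736).

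Among the 22 adaptors and enzymes that dock on activated receptors, 5 rose and 2 fell from fetal to neonatal cultures. Between adult and fetal cultures 7 were higher and 8 lower, and between adult and neonatal cultures 5 were higher and 8 lower. The shares called, 31.8%, 68.2% and 59.1%, were near those of all genes (36.3%, 70.5% and 63.5%). The medians stayed between -0.13 and 0.05. The 5 genes that rose became 3 without neonatal replicate 1 or 2, and the 2 that fell became 1 without fetal replicate 1 or 2, adult replicate 2 or any 1 neonatal library. Nck2, an SH2 and SH3 adaptor, was at 48.5 ± 4.07 CPM in fetal, 53.2 ± 0.770 in neonatal and 13.996 ± 0.667 in adult cultures (adult against fetal log2 -1.79, adjusted p = 1.37e-07). Yes1, a Src-family kinase, was at 30.0 ± 1.39, 26.9 ± 1.67 and 7.54 ± 0.944 CPM (adult against fetal log2 -1.99, adjusted p = 3.66e-07). Neither gene passed between neonatal and fetal cultures (adjusted p = 0.206 and 0.239).

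Of the 12 tested genes of the Ras, MAP kinase and Akt cascade, Mapk3 and Map2k2 were the 2 called between neonatal and fetal cultures, both higher in neonatal cells. The call of Map2k2 (log2 0.22, adjusted p = 0.0365) was lost without fetal replicate 2 or neonatal replicate 2 or 3 (adjusted p = 0.108 to 0.119), with upper-quartile scaling (0.0601), with library size alone (0.719) and in a fit of those ages alone (0.0545). Between adult cultures and either other age 3 were higher and 6 lower, with medians of -0.22 against fetal and -0.24 against neonatal cells. That is 75% called in each, against 70.5% and 63.5% of all genes. Between neonatal and fetal cultures it was 16.7%, against 36.3%. Mapk3, which encodes ERK1, rose with each age, from 112 ± 4.05 to 142 ± 3.51 and then 190 ± 5.30 CPM (adult against fetal log2 0.76, adjusted p = 2.46e-06). Map2k2, which encodes the MEK2 kinase upstream of it, stood at 97.7 ± 6.08, 113 ± 6.16 and 178 ± 5.95 CPM (adult against fetal log2 0.87, adjusted p = 3.86e-06).

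Among the 16 tested negative regulators 4 rose and 1 fell from fetal to neonatal cultures, 7 were higher and 6 lower in adult than in fetal cultures, and 6 were higher and 7 lower in adult than in neonatal cultures. The shares called were 31.2%, 81.2% and 81.2%, against 36.3%, 70.5% and 63.5% of all genes. The medians were 0.11, 0.00 and -0.16. The 6 lower in adult than in fetal cultures became 3 without adult replicate 2, and the gene that fell from fetal to neonatal cultures was no longer called without fetal replicate 3, without any 1 neonatal library or with a replicate block. Ptprj, a transmembrane phosphatase that acts on the beta receptor, also rose with each age, from 19.8 ± 1.03 to 28.4 ± 1.83 and then 96.7 ± 8.58 CPM (adult against fetal log2 2.29, adjusted p = 5.03e-08). Dok1, an adaptor that recruits the Ras-inactivating protein RasGAP, was at 15.7 ± 0.447, 16.6 ± 0.647 and 32.6 ± 2.90 CPM (adult against fetal log2 1.06, adjusted p = 5.87e-06).

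The early response genes, whose transcription PDGF and serum can induce within a short time, had the largest medians of the 6 lists in both comparisons with adult cultures. Between adult and fetal cultures 12 of 13 were higher and 1 was lower (100% called, against 70.5% of all genes), with a median log2 fold change of 2.74. Between adult and neonatal cultures 10 were higher (76.9% called, against 63.5% of all genes), with a median of 2.17. Between neonatal and fetal cultures 2 rose and 2 fell (30.8% called, against 36.3% of all genes), with a median of 0.39. Those 2 that rose became 1 without fetal replicate 2, adult replicate 2 or any 1 neonatal library, and the 2 that fell became 1 without neonatal replicate 1 or 2. Egr2, a zinc finger transcription factor, rose from a fetal mean of 11.1 ± 1.64 CPM to 23.5 ± 1.04 in neonatal cultures and 190 ± 20.9 in adult ones (adult against fetal log2 4.10, adjusted p = 1.32e-08). Ier2 was at 62.9 ± 5.89, 58.7 ± 3.83 and 306 ± 26.5 CPM (adult against fetal log2 2.28, adjusted p = 7.44e-08). Fosl1, the gene that was lower, fell by 1.11 on the log2 scale between fetal and adult cultures (adjusted p = 0.0152). It was at 8.43, 7.94 and 19.8 CPM in fetal and 6.20, 4.70 and 5.84 in adult libraries, and the change was -0.56 without fetal replicate 3 and not called without adult replicate 2 (adjusted p = 0.0571). It and the next genes were named after their values were seen. The list includes Ccl2 and Cxcl1, chemokines that macrophages also make, at log2 6.15 and 5.75 between adult and fetal cultures. The macrophage sums given above also differed between these ages, and their part in the levels of this list was not tested. The activity of the receptors was not measured.

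The list of related receptors of the same kinase class and their ligands had 6 tested genes. Of these 4 rose and 1 fell from fetal to neonatal cultures, 4 were higher and 2 lower in adult than in fetal cultures, and 4 were higher and 1 lower in adult than in neonatal cultures. The shares called were 83.3%, 100% and 83.3%, against 36.3%, 70.5% and 63.5% of all genes. The medians were 0.99, 2.34 and 1.34. The 4 that rose from fetal to neonatal cultures became 2 without fetal replicate 2 or any 1 neonatal library and in a fit of those ages alone. The called genes that were higher included both ligands of the CSF1 receptor. Csf1 stood at 71.6 ± 12.3, 193 ± 2.18 and 553 ± 232 CPM (adult against fetal log2 2.95, adjusted p = 1.44e-05), and Il34 at 0.380 ± 0.147, 1.04 ± 0.113 and 11.1 ± 3.61 CPM (log2 4.84, adjusted p = 2.01e-06). The neonatal to fetal call of Il34 (1.42, adjusted p = 0.0193) was lost without fetal replicate 3 (adjusted p = 0.0568) or neonatal replicate 1 (0.0590). Their receptor Csf1r, itself a defining gene of macrophages and named here after its values were seen, was at 6.31 ± 7.47, 28.3 ± 1.40 and 510 ± 123 CPM. Kitlg, the stem cell factor gene, also chosen after its values were seen, was at 48.1 ± 9.68, 23.4 ± 0.778 and 13.9 ± 5.38 CPM. It fell from fetal to neonatal (log2 -1.04, adjusted p = 0.00929) and from neonatal to adult cultures (-0.75, adjusted p = 0.0240), and the second call was lost without neonatal replicate 2 or 3 or adult replicate 2 or 3 (adjusted p = 0.0516 to 0.0774).

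**Figure D5:**
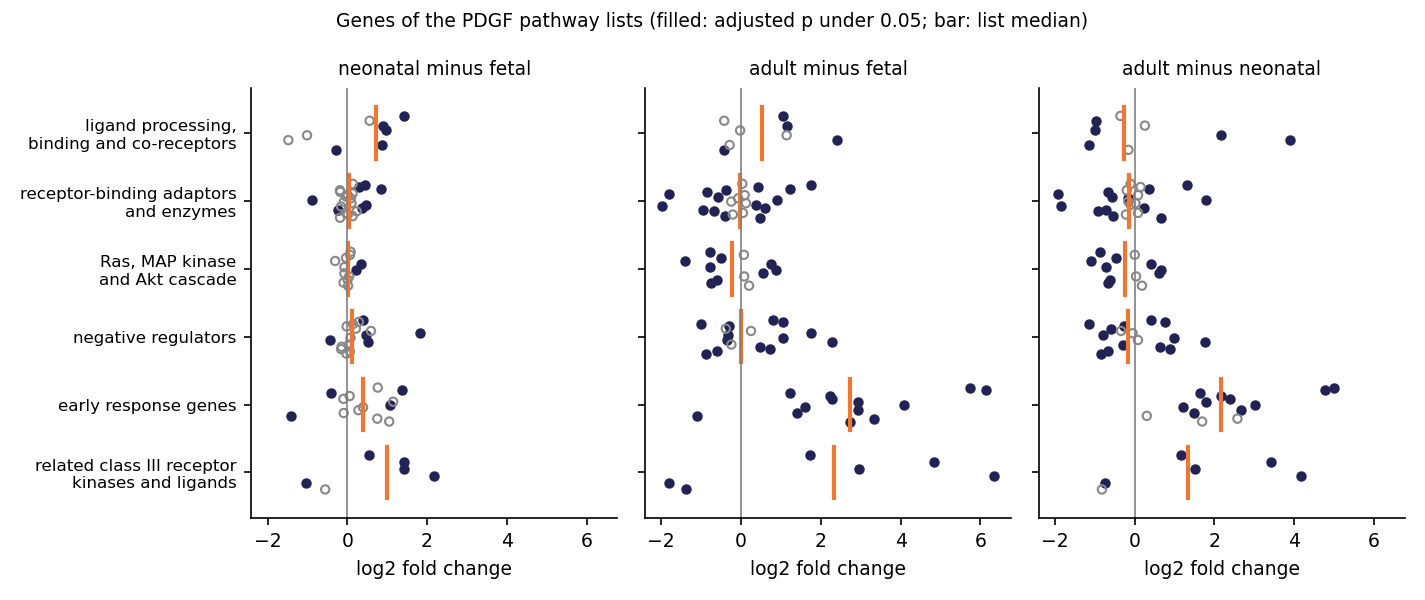
Log2 fold change of each tested gene of the 6 pathway lists in the 3 comparisons, with 1 circle per gene, filled where adjusted p is under 0.05, and a bar at the list's median. The early response genes have a median of 2.74 in adult against fetal cells and 2.17 in adult against neonatal cells, while the adaptor and cascade lists lie on both sides of 0.

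For each PDGF gene the 3 genes with the most similar pattern were found among 8323 tested genes with a mean of at least 10 CPM, by the root mean square (RMS) difference in mean-centred log2 CPM over the 9 libraries, given here as a description. The smallest RMS differences were those of Pdgfa, with Arhgap1 (RMS difference 0.0861), Pald1 (0.0873) and Dbndd2 (0.0938), all of them highest in neonatal cultures. Arhgap1, for example, had means of 219.7, 362 and 223 CPM in fetal, neonatal and adult cultures. Pdgfrb was most like Plcl1 (0.115), Pqlc3 (0.120) and Tbx18 (0.128), and Tbx18 encodes a transcription factor of epicardial and mural cells with means of 16.6, 43.9 and 26.7 CPM. Pdgfd was most like Pqlc3 (0.141), Fzd4 (0.199) and C1qtnf6 (0.205), so that Pqlc3 is near both Pdgfd and Pdgfrb.

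Pdgfra was most like Pla1a (RMS difference 0.161), Snai1 (0.225) and Lpar1 (0.251). Snai1, a transcription factor of epithelial to mesenchymal transition, had means of 37.1, 57.3 and 124.7 CPM in fetal, neonatal and adult cultures. Pdgfc was most like Bdnf (0.255), Lsr (0.258) and Ptprn (0.341), and Bdnf, a neurotrophin, had means of 31.8, 8.02 and 2.14 CPM. Pdgfb had the largest RMS differences, with Serinc2 (0.356), Anxa3 (0.418) and Tbkbp1 (0.491). Serinc2 had means of 37.6, 3.80 and 14.1 CPM, with the same neonatal low. By Pearson correlation instead of the RMS difference, 7 of the 18 neighbours were the same. The RMS difference depends on the size of the changes as well as on their shape. Lsr correlated with Pdgfc at 0.994, Arhgap1 with Pdgfa at 0.973 and Serinc2 with Pdgfb at 0.967.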

How the data were processed

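Raw gene counts of 9 libraries were deposited. They come from featureCounts 1.6.3 with an rn6 annotation and no strand option, per the file headers, so overlapping or antisense genes could not be separated, though no other gene shares exon bases with the 6 PDGF genes. The submitters' processing notes also name FastQC, Trimmomatic 0.39, STAR 2.5.2b, Subread 1.6.3 and DESeq2, with no roles. A second deposited table held the authors' normalized signal for 12786 genes. Multiplied by 1 size factor per library, over 99.9% of its values came out whole (tolerance 0.01 counts), and the count test on those reads called the same 4114, 7987 and 7197 genes.

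The deposited counts entered edgeR 4.0.16 under R 4.3.3 (filterByExpr, TMM, robust quasi-likelihood fit of all 9 libraries, age as the only term). Benjamini-Hochberg adjustment ran over 11337 genes with a threshold of 0.05. Levels are TMM-scaled CPM, per kilobase of exon where genes are compared. The PDGF genes and the lists were chosen with earlier results of these data known. By rule the text names the 6 genes, the 2 genes of each pathway list with the smallest adjusted p in the test of any age, and the 3 genes most like each PDGF gene. Other genes, such as Plat, Pdgfrl, Fosl1, Ccl2, Cxcl1, Csf1r, Kitlg and single markers, were named outside that rule after their values were seen. Replicate libraries differed by more than counting error (chi-square per degree of freedom 2.05 to 97.3), so none was taken as deposited more than once. Same-numbered libraries did not deviate together. Alternatives were DESeq2 1.42.0, its size factors, library size alone, upper-quartile scaling, no filter, a replicate block, a test against a log2 fold change of 1, fits of the compared ages alone and each library left out in turn.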

Additional observations from a re-analysis of the deposited data

How the results depend on the processing

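The calls of Pdgfb and Pdgfc between neonatal cultures and either other age, and of Pdgfc and Pdgfra between adult and fetal cultures, kept their side of the threshold in all 18 alternatives. Of these, 1 was the count test on reads recovered from the normalized table, which repeats the same counts and could not differ. The 3 libraries per age, the spread of Pdgfra in adult libraries and of Pdgfrb and Pdgfd in fetal ones, and counts of 13 to 35 behind the lowest Pdgfb and Pdgfc levels limit the precision. The causes of the changes below were not tested. With DESeq2 the adult to neonatal difference of Pdgfrb passed (-0.61, adjusted p = 0.0449). With library size alone the median of all genes moved to -0.18 between neonatal and fetal cultures and 29% of called genes were higher, against 50.4% with TMM, and the signs of Nck2 (-0.034) and Dok1 (-0.091) between those ages and of Pdgfa between adult and fetal cultures (-0.020) reversed. Upper-quartile scaling also reversed Pdgfa between adult and fetal cultures (-0.0026), and there Pdgfrb no longer passed with that scaling (0.65) or without a filter (0.70). In fits of the compared ages alone, Pdgfra passed between neonatal and fetal (0.58) and Pdgfrb between adult and neonatal cultures (-0.62), and Pdgfrb did not between adult and fetal cultures (0.72).

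Tested against a log2 fold change of at least 1, a stricter question, 360, 2648 and 1837 genes and 2, 2 and 2 PDGF genes were called between neonatal and fetal, adult and fetal, and adult and neonatal cultures. The calls lost were Pdgfa (0.72), Pdgfd (1.34) and Pdgfrb (1.34) in the first, Pdgfb (-0.74) and Pdgfrb (0.73) in the second and Pdgfa (-0.64), Pdgfd (-0.82) and Pdgfra (1.25) in the third. List calls summed over the comparisons went from 14 to 2 for ligand processing, 35 to 8 for adaptors, 20 to 1 for the Ras, MAP kinase and Akt cascade, 31 to 4 for negative regulators and 16 to 7 for related receptors.

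With each library left out in turn, the genes called between neonatal and fetal cultures ranged from 2476 (without neonatal replicate 2) to 4679 (without fetal replicate 3). The PDGF genes called between adult and fetal cultures ranged from 2 (without adult replicate 2 or 3) to 5 (without fetal replicate 2). Those 3 fits called 7509, 7642 and 7651 of all 11548, 11547 and 11502 genes tested. The calls of the ligand processing list ranged from 10 to 22 (without fetal replicate 3). The log2 fold change between adult and fetal cultures ranged from -0.052 to 0.17 for Pdgfa, -1.01 to -0.50 for Pdgfb, 0.22 to 0.79 for Pdgfd and 0.40 to 0.91 for Pdgfrb. Between adult and neonatal cultures it ranged from -1.02 to -0.72 for Pdgfd, 0.79 to 1.53 for Pdgfra and -0.64 to -0.60 for Pdgfrb, and between neonatal and fetal cultures from 0.48 to 0.77 for Pdgfra.

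With replicate number as a block, 3713, 7801 and 6985 genes were called in place of 4114, 7987 and 7197, and no PDGF gene's call changed (Pdgfb between neonatal and fetal cultures -2.84). Same-numbered libraries correlated at -0.0649 to 0.0521 in their deviations from the age means. With 3 libraries per age this cannot show whether same-numbered libraries shared a preparation or a run, and the labels do not say.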
